A study of Mus musculus with 8 samples.

Results

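In nuclei sorted as microglia, a set of regions listed as accessible held almost no acetylation of histone H3 at lysine 27 (H3K27ac). They are called low-H3K27ac regions here. Of 129304 listed regions, 125981 lie on chromosomes 1 to 19, and 17802 of these (14.1%) had a value under 3 in each of the 4 H3K27ac libraries. The regions were chosen by those H3K27ac values, so their low H3K27ac is a description and was not tested. What the choice did not use are their position, annotation, repeat content, peak score, sequence, and the 4 input libraries.

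H3K27ac was measured by chromatin immunoprecipitation and sequencing in nuclei sorted from frozen brains of C57BL/6 mice aged 2 years. One group was wild type (WT), and the other had the genotype GrnKO, a knockout of the progranulin gene Grn whose allele is not given in the labels. The sort kept nuclei that stained for PU.1, a myeloid transcription factor, and left out those that stained for OLIG2 or NEUN. Each of 2 replicates per genotype was a pool of nuclei from 2 mice, with an H3K27ac library and an input library of sheared chromatin that was not immunoprecipitated, which gave 8 libraries. Values are tags per region of 800 bp, scaled by the authors to 10000000 tags per library, and are called scaled tags. The regions come from ATAC-seq peaks that were reproducible and then merged, per the file header, which also holds the labels wt, sgshko and eko. No ATAC-seq values were part of the files used here, so that the accessibility of a region in these mice was not measured.

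H3K27ac is placed by the acetyltransferases p300 and CBP on nucleosomes that flank active promoters and enhancers. DNA can also be open without it, at sites bound by CTCF, at promoters of CpG islands held by Polycomb proteins, and at enhancers that are primed or used in another cell state. Polycomb silencing is known above all at the genes of developmental transcription factors, such as the Hox clusters, in cells that do not use them.

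Depth and identity were checked over all regions. The H3K27ac libraries held 15491642.5 to 20030832 tags and the inputs 4078179 to 14415969 tags. A count of 3 tags, taken as the floor of detection, is 1.50 to 1.94 scaled tags in the H3K27ac libraries and 2.08 to 7.36 scaled tags in the inputs, so that a value under 3 is a handful of tags at most. WT input replicate 1 and GrnKO input replicate 2 were sparse, with 91.3% and 81.9% of all regions at 0, against 60.3% and 43.1% in the other inputs. Over the 3 regions within 1 kb of the Grn start, mean H3K27ac was 361 and 359 scaled tags in WT and 2.45 and 2.16 in GrnKO, and none of the 10 Grn regions was a low-H3K27ac region, since the rule needs all 4 libraries. At the start sites of 8 microglial markers with a region within 1 kb (9 were listed), the summed H3K27ac was 6726 to 9372 scaled tags per library, and none of these regions was a low-H3K27ac region. Summed values at 3 neuronal markers were 0 to 3.99 scaled tags. At 3 astrocyte markers the sums were 154 to 233 scaled tags, of which Slc1a3 held 145 to 221. At 6 markers of the oligodendrocyte lineage they were 68.6 to 96.2, and no T lymphocyte marker had a region there. S100a8, the only monocyte or neutrophil marker with a region near its start, held 0 and 5.43 scaled tags in WT and 22.02 and 20.22 in GrnKO, with no overlap.

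Sequences of some promoters and microRNA genes inside low-H3K27ac regions follow as examples. The promoters below are RefSeq windows of 300 bases (GRCm38.p6, the assembly known as mm10), from 250 bases before to 50 after a start site, 5′ to 3′ on the gene's strand. The first 5 lie within low-H3K27ac regions, and capitals mark each CG dinucleotide. Neurog2 (chr3:127632886-127633185, plus strand) encodes a proneural transcription factor, Pax9 (chr12:56695221-56695520, plus strand) a paired-box factor of tooth and thymus development, Hoxa13 (chr6:52260831-52261130, minus strand) the factor at the distal end of the HoxA cluster, Slc17a7 (chr7:45163671-45163970, plus strand) a vesicular glutamate transporter of neurons, and Ube2c (chr2:164769679-164769978, plus strand) a ubiquitin-conjugating enzyme of mitosis. Arpc4 (chr6:113377863-113378162, plus strand), a subunit of the actin-nucleating Arp2/3 complex, is shown for contrast: its promoter lies in a region outside the set with a mean of 429 scaled tags of H3K27ac, and the capitals there mark a match to the ETS motif CCGGAAGT.

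Neurog2: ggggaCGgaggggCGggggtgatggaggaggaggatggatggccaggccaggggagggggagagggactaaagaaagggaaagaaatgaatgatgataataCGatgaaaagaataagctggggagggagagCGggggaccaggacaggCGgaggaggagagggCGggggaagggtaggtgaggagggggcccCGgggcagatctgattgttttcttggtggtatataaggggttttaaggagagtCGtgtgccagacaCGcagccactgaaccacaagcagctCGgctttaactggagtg
Pax9: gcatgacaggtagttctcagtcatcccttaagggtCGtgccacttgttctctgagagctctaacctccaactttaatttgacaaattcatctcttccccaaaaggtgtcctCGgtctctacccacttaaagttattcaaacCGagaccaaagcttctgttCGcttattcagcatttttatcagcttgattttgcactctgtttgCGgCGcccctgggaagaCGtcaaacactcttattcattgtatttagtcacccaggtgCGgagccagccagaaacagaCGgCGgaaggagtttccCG
Hoxa13: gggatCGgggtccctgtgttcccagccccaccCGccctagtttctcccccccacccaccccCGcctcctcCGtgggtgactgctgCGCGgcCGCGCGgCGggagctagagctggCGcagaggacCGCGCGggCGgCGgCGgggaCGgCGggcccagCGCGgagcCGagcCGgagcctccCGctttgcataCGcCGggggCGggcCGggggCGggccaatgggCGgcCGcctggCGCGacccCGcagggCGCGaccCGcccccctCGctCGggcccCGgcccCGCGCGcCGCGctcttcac
Slc17a7: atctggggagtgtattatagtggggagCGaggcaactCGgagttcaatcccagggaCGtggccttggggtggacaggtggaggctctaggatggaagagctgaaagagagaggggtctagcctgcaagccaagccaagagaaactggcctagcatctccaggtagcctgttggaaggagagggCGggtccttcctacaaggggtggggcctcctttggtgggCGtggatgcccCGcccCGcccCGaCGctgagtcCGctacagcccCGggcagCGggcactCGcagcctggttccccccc
Ube2c: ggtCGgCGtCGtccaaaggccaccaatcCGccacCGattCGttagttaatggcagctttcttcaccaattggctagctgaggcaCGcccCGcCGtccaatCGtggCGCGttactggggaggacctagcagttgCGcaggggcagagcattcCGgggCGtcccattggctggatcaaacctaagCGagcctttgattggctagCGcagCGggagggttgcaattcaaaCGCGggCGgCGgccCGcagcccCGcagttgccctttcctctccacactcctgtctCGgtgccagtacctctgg
Arpc4: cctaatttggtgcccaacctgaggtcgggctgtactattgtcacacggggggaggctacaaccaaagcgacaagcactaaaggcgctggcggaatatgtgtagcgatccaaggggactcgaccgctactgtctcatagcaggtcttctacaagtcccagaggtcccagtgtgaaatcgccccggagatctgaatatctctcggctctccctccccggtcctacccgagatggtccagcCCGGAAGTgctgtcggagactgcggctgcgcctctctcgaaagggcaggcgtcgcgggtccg

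The windows range widely in CpG content, from 10 CG dinucleotides in Neurog2 and 11 in Pax9 to 45 in Hoxa13. The region over the Pax9 start held 0 tags in all 8 libraries. The region over Neurog2 held 0, 0, 0 and 0.50 scaled tags of H3K27ac (WT replicates first, then GrnKO replicates, as in all such lists below), and that over Hoxa13 held 0, 0, 1.83 and 0. At Slc17a7 the values were 0, 0, 0 and 0.50, and at Ube2c all 4 were 0. No value at these 5 promoters exceeded the floor of 3 tags, and only the 1.83 of Hoxa13 reached it. They are examples from regions that the rule held under 3. Other promoters of the set went above that floor, such as Grin1 with 2.44 in WT replicate 2.

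Of 919 autosomal microRNA hairpins in the RefSeq table, 140 lay inside a listed region, and 25 of these (17.9%) lay inside low-H3K27ac regions only, against 14.1% of all autosomal regions that were in the set. The mature sequences of those that share a seed, together with miR-9 and miR-196a, which were picked with their values in view, are given 5′ to 3′ with the seed (bases 2 to 8) in capitals.

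mmu-miR-132-3p: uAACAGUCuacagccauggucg
mmu-miR-212-3p: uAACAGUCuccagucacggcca
mmu-miR-34b-5p: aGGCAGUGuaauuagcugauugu
mmu-miR-449c-5p: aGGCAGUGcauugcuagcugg
mmu-miR-34b-3p: aAUCACUAacuccacugccauc
mmu-miR-34c-3p: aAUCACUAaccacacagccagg
mmu-miR-9-5p: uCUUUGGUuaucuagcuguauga
mmu-miR-196a-5p: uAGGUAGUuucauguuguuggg

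Mir132 and Mir212, microRNAs induced by neuronal activity, share the seed AACAGUC and 1 region (chr11:75173012-75173812), where the H3K27ac values were 0, 1.36, 0 and 2.00 scaled tags. The 5p arms of Mir34b and Mir449c, from a p53-linked family abundant in ciliated cells, share the seed GGCAGUG, and the 3p arms of Mir34b and Mir34c share AUCACUA. Mir34b lies in a region (chr9:51103093-51103893) with values of 1.29, 0, 0 and 1.00, Mir34c in an overlapping one (chr9:51102830-51103630) with 0, 0, 0 and 1.00, and Mir449c in a region (chr13:113035680-113036480) with 0, 0.54, 0 and 2.00. Mir9-1, whose product is a neural regulator, lies in a region (chr3:88215412-88216212) that the table annotates at a transcript end, with values of 1.94, 0, 0.61 and 1.00. Mir196a-1, from within the HoxB cluster, lies in a region (chr11:96264740-96265540) with 1.29, 2.17, 0 and 0. The rule held all these values under 3, so no genotype difference is read from them, at Mir196a-1 or elsewhere.

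The values that chose the low-H3K27ac regions were near 0 in every library. Their mean, in scaled tags, was 0.633 and 0.687 for the WT replicates and 0.678 and 0.698 for GrnKO, against 44.7, 57.5, 58.8 and 59.7 in the other autosomal regions. The low-H3K27ac regions made up 14.1% of autosomal regions and held 0.190 to 0.233% of the H3K27ac tags of those regions in the 4 libraries. In 1359 of them (7.63%) all 4 libraries had 0 tags, which allows up to 1.50 to 1.94 scaled tags per library. The threshold cut through a continuum. The 3341 low-H3K27ac regions whose highest value was 2.5 to under 3 had a mean of 1.20 scaled tags over the 4 libraries, and the 4080 regions outside the set whose highest value was 3 to under 3.5 had a mean of 1.48. In such pooled nuclei, fewer nuclei with the mark and less mark per nucleus cannot be told apart.

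**Figure D1:**
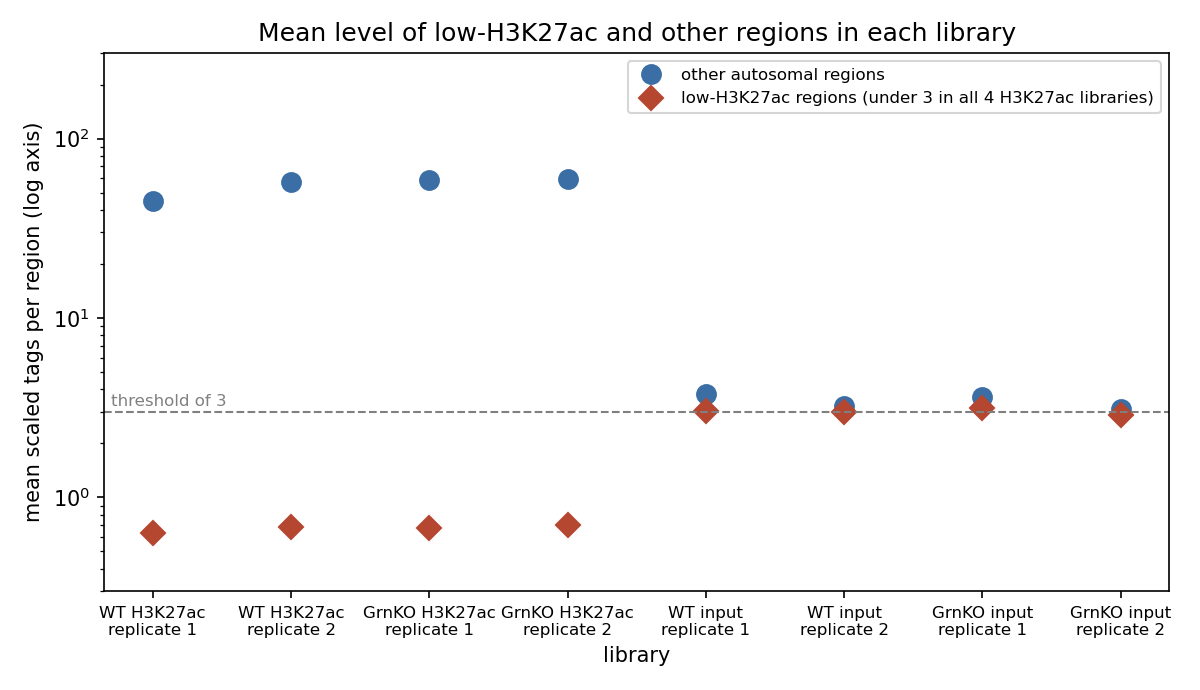
Mean scaled tags per region (log axis) in each of the 8 libraries, for low-H3K27ac regions (diamonds) and the other autosomal regions (circles). Low-H3K27ac regions average 0.633 to 0.698 in the H3K27ac libraries and 2.87 to 3.16 in the inputs, close to the inputs of other regions; the dashed line is the threshold of 3 that chose them.

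The input libraries, which the choice did not use, covered the low-H3K27ac regions somewhat less deeply than the rest, with a wider gap at promoters and exons. Mean input was 3.02 and 3.00 scaled tags in WT and 3.16 and 2.87 in GrnKO, against 3.77, 3.25, 3.61 and 3.13 in the other regions. The ratio was below 1 in 4 of 4 libraries, between 0.801 and 0.923. Its mean on the log2 scale was -0.19 ± 0.094 (SD, n = 4), with a p of 0.125 by an exact sign-flip permutation test (two-sided), the smallest that 4 libraries allow. Low-H3K27ac regions took 12.4% ± 1.09 of input tags in autosomal regions in the WT pools and 12.8% ± 0.360 in the GrnKO pools (SD, n = 2 of each), a difference within their spread by the exact permutation test (two-sided, p = 1, where 2 against 2 allow no p under 0.333). In 4160 low-H3K27ac regions (23.4%) all 4 inputs had 0 tags, as in 19.6% of other regions, and 384 low-H3K27ac regions (2.16%) had 0 tags in all 8 libraries. Promoter regions in the set had mean inputs of 2.20, 2.02, 2.33 and 1.66, against 3.17, 2.54, 3.03 and 2.46 for those outside it. Exonic regions had 2.30, 1.96, 2.37 and 1.78, against 3.34, 2.49, 2.89 and 2.55. All 4 inputs had 0 tags in 34.1% against 25.3% of promoter regions and 34.6% against 26.3% of exonic regions. The regions with the most input tags owed them to 1 library: the 5 with the highest mean input, nearest to Adgrf3, Itga3, Ctnna1, Gmds and Mest, held 272 to 336 scaled tags in WT input replicate 1 and at most 7.63 in any other input.

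H3K27ac in a library that took no part in the choice was also low. Regions with values under 3 in any 3 of the H3K27ac libraries numbered 20814 to 23481. In the library left out, 84.2% of them were under 3 when it was WT replicate 2, 84.1% for GrnKO replicate 1 and 85.5% for GrnKO replicate 2, and 75.8% for WT replicate 1, against 28.9 to 31.0% of all autosomal regions. Their mean in the library left out was 1.26 to 1.89 scaled tags, highest in WT replicate 1, which is 0.479 ± 0.089 (SD, n = 4) of the mean in the input of the same pool. When the choice was made on 1 genotype, 17802 of 26823 regions low in both WT libraries (66.4%) were low in both GrnKO libraries, against 22.7% of all autosomal regions, and 17802 of 28602 chosen on GrnKO (62.2%) were low in both WT libraries, against 21.3% of all. Values of at least 10 in both libraries of the other genotype were found in 327 of those 26823 regions and 36 of those 28602. The same was not counted over all autosomal regions, so the difference is not read as a trait of low regions. These values carry the authors' scaling, under which 95.2% of regions called in the genotype comparison below were higher in GrnKO. WT replicate 1 had the lowest TMM factor, 0.827 against 1.04 to 1.08, and its part in the difference between 327 and 36 was not tested.

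By position, low-H3K27ac regions were more often intergenic or exonic and less often at promoters or in introns. Intergenic regions made up 41.6% of them and 30.5% of other autosomal regions. Introns made up 38.5% and 47.0%, and promoters, the class HOMER calls promoter-TSS, 9.03% and 15.2%. Exons made up only 5.16% but stood furthest from the rest: 918 of 3724 exonic regions (24.7%) were low-H3K27ac regions, against 18.3% of intergenic, 11.9% of intronic and 8.92% of promoter regions. Regions at transcript ends (17.97%), 3′ UTRs (16.2%) and 5′ UTRs (15.2%) lay between. CpG islands in intergenic DNA were low-H3K27ac regions in 246 of 1014 cases (24.3%), and those in introns in 363 of 3133 (11.6%). The share per chromosome varied little, from 12.6% of regions on chromosome 19 to 15.5% on chromosome 3.

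**Figure D2:**
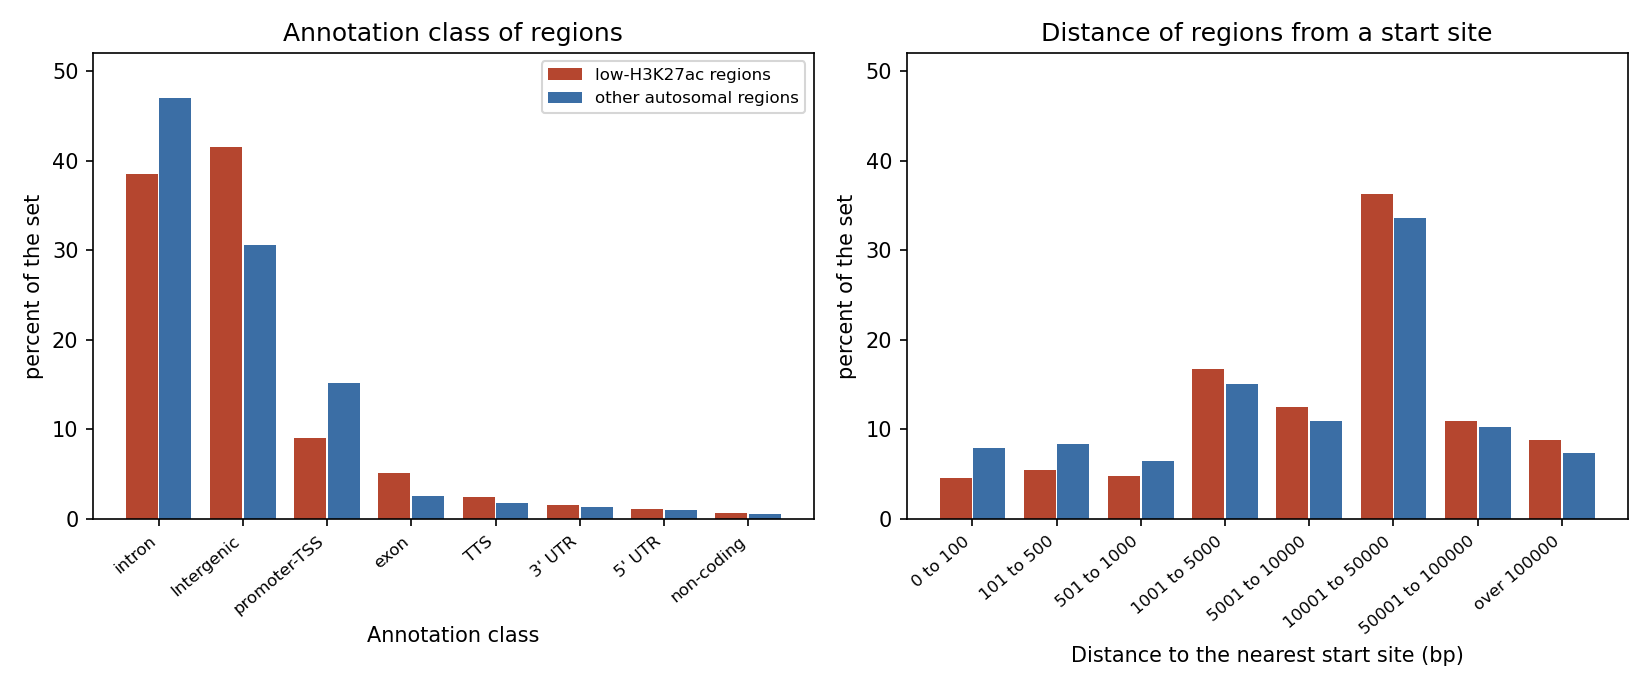
Percent of low-H3K27ac regions and of other autosomal regions in each annotation class of the deposited table (left) and in each bin of distance to the nearest start site in bp (right). Low-H3K27ac regions hold a larger intergenic share (41.6% against 30.5%) and a smaller share in every bin up to 1000 bp from a start site.

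Distance from a start site separated the sets only close to the start. Of low-H3K27ac regions 14.9% lay within 1 kb of one, and of other regions 22.8%. The share of regions in the set was 8.69%, 9.75% and 10.7% in the 3 bins up to 1000 bp, and stayed between 14.9% and 16.5% in all 5 bins beyond. The median distance was 13237 bp, against 10647 bp for the others. Low-H3K27ac regions were also lower in the score that the table gives each region. A score of 1000, the highest, was held by 27.4% of them and by 48.8% of other regions. Within regions of that score, 12.3% of low-H3K27ac regions and 23.2% of others were promoters, and 42.1% and 28.4% were intergenic.

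Low-H3K27ac regions stood alone more often, and away from acetylated chromatin. Of the 17802, 77.1% overlapped no other listed region, against 49.3% of other regions. The nearest region with a mean of at least 20 scaled tags was a median 35409 bp away, and for the 57118 other regions below that level it was 13072 bp away. Another low-H3K27ac region lay within 1 kb of 17.5% of its regions and of 4.19% of those others. Overlapping regions share tags, so an overlap with an acetylated region or with another low-H3K27ac region bears on the choice itself, and these shares follow from it in part.

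A repeat was the detailed annotation of 15.3% of low-H3K27ac regions and 14.7% of other regions. Each region carries a single such label, so that a region labelled otherwise can still hold a repeat. Over 1 kb from a start site the direction was the other way. There 12455 of 15158 low-H3K27ac regions and 67834 of 83482 other regions had no repeat label, a larger part in the set. The B2 family differed more. B2 elements, short interspersed repeats derived from a transfer RNA and transcribed by RNA polymerase III, accounted for 563 low-H3K27ac regions (3.16%, against 1.26% of others), and 29.2% of all 1931 B2 regions were in the set. The corresponding share was 10.8% for B4, 10.0% for Alu (the family that includes mouse B1), 8.57% for the ancient MIR elements, 13.04% for L1 and 13.4% for ERVL-MaLR. Repeats outside the B2 family were in the set in 12.9% of cases. Among single elements, B2_Mm2 reached 34.8% (103 of 296), B3 28.8% (299 of 1038) and B3A 26.4% (151 of 573). High shares also lay outside the B2 family. The long terminal repeats RLTR45 and ORR1B1 reached 30.1% and 25.2%, the L1 element Lx5c 30.7%, RMER1B 26.5% (18 of 68) and MER20 26.2% (22 of 84). The group named Other reached 26.4% (37 of 140). Of the 563 B2 regions in the set 560 lay over 1 kb from a start site, as did 1342 of the 1368 outside it. A region with another label, such as promoter, is not counted as B2. Mean input was 5.11, 3.40, 4.02 and 3.83 scaled tags in the 4 libraries for B2 regions in the set and 4.72, 3.98, 3.99 and 3.25 for B2 regions outside it, lower in the set in WT input replicate 2 and higher in the other 3 inputs. Among regions with a score of 1000 the share was 24.8% for B2 and 7.30% for other repeats, against 8.46% for all regions.

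**Figure D3:**
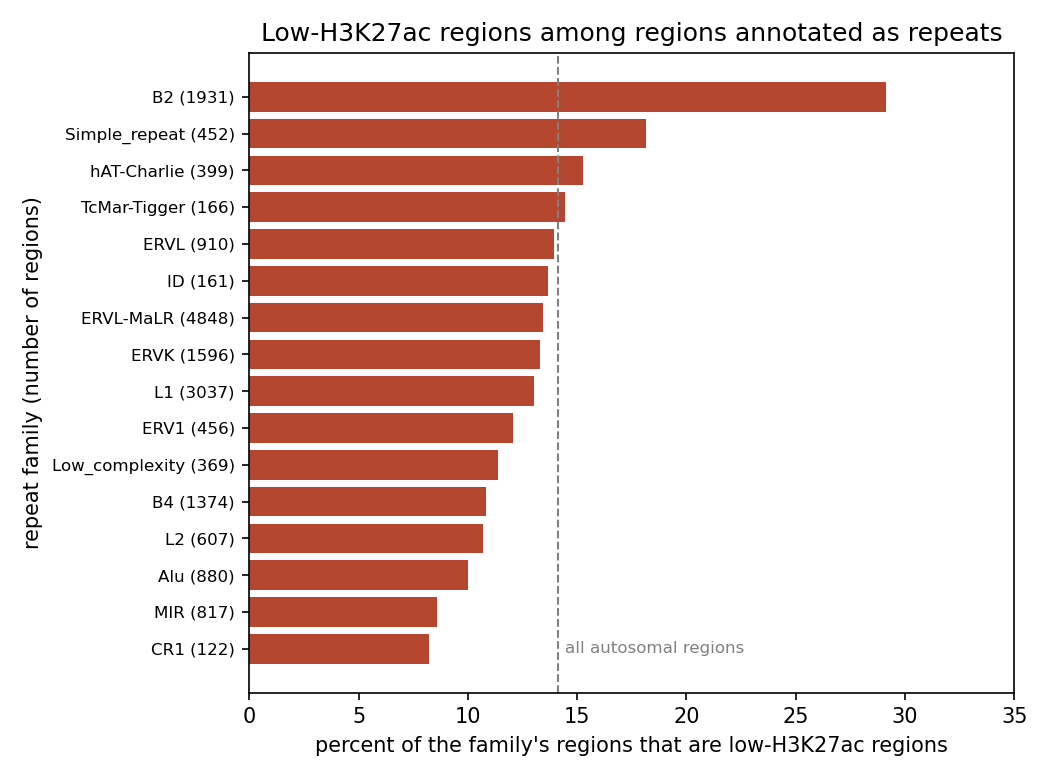
Percent of the regions of each repeat family with at least 100 regions, leaving out the group named Other, that are low-H3K27ac regions (family size in brackets); the dashed line is the share over all autosomal regions, 14.1%. B2 elements reach 29.2%, and the other families lie between 8.20% and 18.1%.

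The nearest genes of low-H3K27ac regions were many: 8829 of 18101 genes with an autosomal region had at least 1. For 1252 genes every listed region was in the set, and for 175 of these there were 3 or more regions, of 12550 genes with that many. The 24 genes with at least 5 regions, all in the set, were of mixed kinds. Cep170b, Dmbx1, a factor of midbrain development, and Foxc1, a forkhead factor of mesenchyme and meninges, had 8 of 8 regions in the set. Lgr5, a receptor that marks epithelial stem cells, Nkpd1 and Zdhhc19 had 7 of 7. Further down, and picked out after their counts were seen, Foxa1, a pioneer factor of endoderm, and the potassium channel genes Kcnc4 and Kcng1 had 6 of 6, and Hoxa13 and Hoxb1 had 5 of 5. At Foxc1 the 8 regions had no value above 2.45 scaled tags in any library.

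After joining regions within 1 kb, the most low-H3K27ac loci lay nearest to Trps1 (16), Adgrl2 (15), Stxbp6 (14), Celf4 (12), and Bcar1, C530044C16Rik and Mllt3 (11 each), followed by A330074K22Rik, Pde4b and Rara (10 each). The part of their regions that was in the set varied. It was 12 of 14 at Bcar1, an adhesion scaffold, 13 of 18 at C530044C16Rik, 12 of 24 at A330074K22Rik, 17 of 35 at Stxbp6 and 14 of 34 at Rara, a retinoic acid receptor. It was lower at Mllt3 (12 of 34), Celf4 (12 of 45), Adgrl2 (16 of 75), Trps1, a GATA-type repressor (16 of 83), and Pde4b, a cAMP phosphodiesterase (10 of 56). Within 1 kb of the start site, the leading genes were Rims2, a presynaptic scaffold, and Adgrl3, a latrophilin of synapses, with 6 of 6 regions in the set each. Gata2, a factor of blood stem cells and mast cells, and Pdgfra, the growth factor receptor of oligodendrocyte precursors, had 5 of 5. Shox2, A730035I17Rik, Zbtb7c, Prr36 and Dcbld1 had 4 of 4, and Lhx9 4 of 5. The 5 Gata2 regions reached at most 2.58 scaled tags and the 5 Pdgfra regions at most 2.90. At Shox2, a homeobox factor of limb and heart, 2 of the 4 regions held 0 tags in all 4 libraries.

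By region counts before joining, 2 dense clusters stood out, named after they were seen. Nearest to Pisd-ps2, 43 low-H3K27ac regions lay within chr17:3006075-3040557, and nearest to Hnf4g 40 lay within chr3:3000011-3033140. Joined within 1 kb, the regions of each gene made 4 loci. Both are close to the first listed position of their chromosome. Their inputs averaged 0.143 to 3.22 and 1.26 to 5.15 scaled tags per library. In both clusters the lowest mean was that of WT input replicate 1, where regions outside the set averaged 3.77. A smaller cluster of 19 low-H3K27ac regions nearest to Vmn1r2 lay within chr4:3050998-3086683 and made 6 loci when joined. The first listed start on chromosome 4 was 3049925.

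Gene lists chosen by function differed widely in the share of their regions that were low in H3K27ac. Of all autosomal regions 14.1% were in the set, and of those within 1 kb of a start site 9.67%. The developmental transcription factors had 46 of 56 regions near starts in the set (82.1%) and the Hox genes 34 of 50 (68.0%). The homeostatic microglia genes had 0 of 45, with a median of 362 scaled tags, and the housekeeping genes 0 of 29, with a median of 162. Among the list genes with a region near a start, every such region was in the set for 19 of 26 developmental factors and 20 of 30 Hox genes, against 1245 of 13526 genes overall.

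Within the developmental factors, Lhx9, a LIM-homeobox factor of gonad and brain, had 12 of 14 regions in the set, and Neurog2 had 12 of 13. In the Hox list, Hoxa13 and Hoxb1 had 5 of 5 and Hoxc4 7 of 10. Of promoter windows inside a listed region, 5 of 7 for the Hox genes and 11 of 15 for the developmental factors lay in low-H3K27ac regions, against 8.46% of all such windows and 0 of 14 for the microglia list, 0 of 6 for the housekeeping genes and 0 of 5 for the olfactory receptors. Values over some of these starts follow, as examples of regions that the rule chose for being low. Lhx2, a cortical selector, had 0, 0, 0 and 0.75 scaled tags over its start. Sox2, the neural stem cell factor, had 0, 1.36, 0.61 and 0. Foxa2 of the floor plate and endoderm had 0, 1.09, 0 and 0.25. Hoxa5 had 0, 0, 0 and 1.00, and Six2, of kidney progenitors, had 0, 0.81, 0 and 1.25.

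Over all their regions, the lists of other cell types lay between the developmental factors and the microglia list. Near starts they had few regions, of which 3 of 6 were in the set for the neuronal list, 6 of 14 for the oligodendrocyte lineage, 2 of 11 for the astrocyte list and 3 of 4 for the lymphocyte list. Of all regions of the neuronal list 28 of 83 (33.7%) were in the set, led by Dlg2, a postsynaptic scaffold, with 8 of 13, Kcnq3, a potassium channel subunit, with 5 of 18 and Slc17a7 with 4 of 5. The region over the start of Grin1, the obligate NMDA receptor subunit, held 0, 2.44, 0 and 0 scaled tags. The oligodendrocyte lineage had 21 of 75 (28.0%), led by Pdgfra with 7 of 10, Olig2 with 5 of 9 and Cspg4 with 3 of 3. Its regions near starts that were in the set were 5 at Pdgfra and 1 at Olig2. None near the starts of Olig1, Mbp and Mog was in the set. Summed H3K27ac there was 0 to 5.16, 19.3 to 56.0 and 27.2 to 49.4 scaled tags per library. The astrocyte list had 11 of 69 (15.9%), close to the share of all regions. Its leading genes were Slc1a3, a glutamate transporter, with 3 of 36, and Aldh1l1 and Fgfr3 with 2 each. The lymphocyte list had 8 of 32 (25%), of which Rag2, a recombinase subunit, held 3. In the microglia list only 11 of 524 regions (2.10%) were in the set. Irf8 had 3 of 51 and Mef2c 3 of 80, both myeloid transcription factors, and none of these lay within 1 kb of a start.

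Large gene families that are expressed in a few cell types also lay above the share of all regions. Vomeronasal receptors had 28 of 73 regions in the set (38.4%), of which 19 were nearest to Vmn1r2, keratins 16 of 46 (34.8%), clustered protocadherins 12 of 39 (30.8%) and olfactory receptors 53 of 230 (23.04%), with 12 of 20 at Olfr161. The 19 at Vmn1r2 are the cluster near the first listed position of chromosome 4 given above. No Vmn1r2 region lay within 1 kb of a start, so the vomeronasal share rests largely on that cluster. A list of mitotic genes, added after some of its members were seen, had 16 of 91 regions in the set (17.6%, against 14.1% of all regions) and 8 of 35 near starts (22.9%, against 9.67%), where the list's median was 4.69 scaled tags. The latter included all 3 regions at the start of Aspm, a spindle pole protein. Of 15 mitotic promoter windows inside a listed region, 4 lay in low-H3K27ac regions (26.7%, against 8.46% of all such windows): those of Aspm, Ube2c, Mybl2, a cell cycle transcription factor, with 0, 2.17, 0 and 0 scaled tags, and Ccnb2, a cyclin, with 0, 0.81, 0 and 2.00. Among regions with a score of 1000 within 1 kb of a start, 7 of 10 of the developmental factors, 10 of 17 of the Hox genes and 4 of 21 of the mitotic genes were in the set, against 4.98% of all such regions. For the other lists it was 2 of 11 for the protocadherins, 1 of 7 for the oligodendrocyte lineage and 1 of 3 for the olfactory receptors. The neuronal list had 1 of 1, the astrocyte list 0 of 3, the microglia list 0 of 29 and the housekeeping genes 0 of 22.

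**Figure D4:**
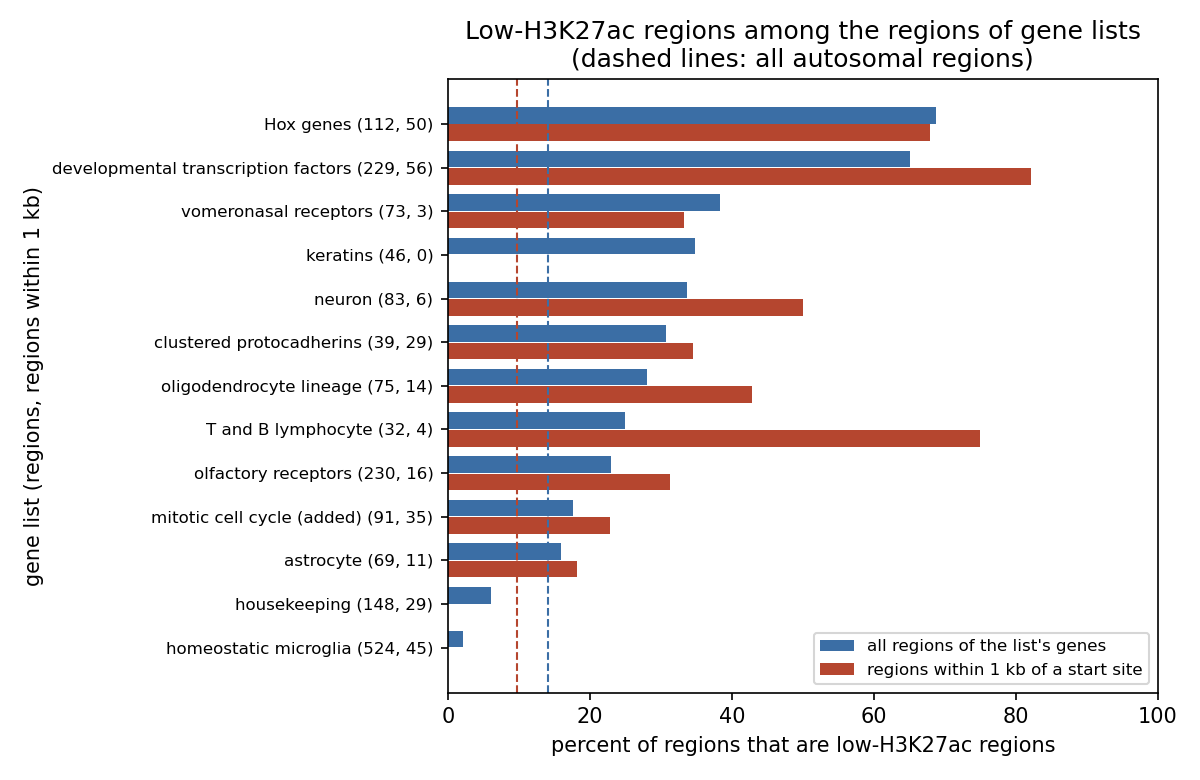
Percent of regions that are low-H3K27ac regions for each gene list, over all regions of the genes (blue) and over regions within 1 kb of a start site (red; numbers of regions in brackets, no red bar where the second number or the share is 0). Dashed lines give the shares over all autosomal regions, 14.1% and 9.67%. Hox genes and developmental factors lie at 65.1% or above in both measures, the microglia list at 2.10% and 0.

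For the classes with over 5% of the set, the regions with 0 tags in all 4 H3K27ac libraries nearest to a start site show what such loci look like. The promoter regions were those of Tmem121 (chr12:113185499-113186299), a membrane protein gene, and of the imprinted growth factor gene Igf2 (chr7:142660865-142661665), 4 and 6 bp from the start. The exonic ones were the first exons of Uncx (chr5:139543608-139544408) and Prdm12 (chr2:31639785-31640585), a homeobox factor of the somites and a zinc-finger factor of pain-sensing neurons. The intronic ones lay in the first introns of Prrt4 (chr6:29179043-29179843), within a CpG island, and of Ppl (chr16:5131817-5132617), a desmosome protein gene. The intergenic ones lay 1033 bp before Lrr1 (chr12:69167381-69168181) and 1149 bp before Pdcd4 (chr19:53890682-53891482). The score was 1000 for the Prrt4 and Ppl regions, and 565 to 780 for the other 6. The Igf2 and Ppl regions also had 0 tags in all 4 inputs, and the Lrr1 region held 46.6 scaled tags in WT input replicate 1.

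Promoter sequence was compared over the RefSeq windows described above. Of 32851 windows, 13186 lay wholly inside a listed region: 1116 inside low-H3K27ac regions only, 12054 inside other regions only, and 16 inside both. The 1116 windows belong to 1024 genes, and protein-coding genes gave 870 of them. Base composition was close, with a GC content of 62.3% in low-H3K27ac windows and 61.5% in the others and 6.77 and 7.33 CpG per 100 bases. The windows in no listed region had 48.6% and 2.04. The share of windows in the set moved only between 6.90% and 11.4% over 5 bins of CpG content.

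Motifs differed more. Each was searched as letters on both strands. The ETS motif CCGGAAGT, the core bound by GABPA and related factors at many widely expressed genes, was in 23 of 1116 windows in low-H3K27ac regions (2.06%) and in 8.79% of the others, with 3.89% over all windows. Many windows overlap, such as 4 of the 23 that belong to starts of Gm34620 which lie 1 base apart. With overlapping windows joined, an alternative chosen after seeing the data, the motif was in 17 of 995 loci in the set (1.71%) and in 830 of 9976 others (8.32%). The PU.1 motif GAGGAAGT, which shares the letters GGAAGT with it, was in 2.15% and 3.89% (3.20% over all), and the M-box TCACGTGA of MITF and TFE factors in 0.806% and 1.87% (0.974% over all). The CTCF core CCACNAGG was in 6.63% and 5.77% (4.99% over all) and, with overlapping windows joined, 6.33% and 6.24%. AP-1 TGANTCA was in 6.36% and 4.65% (7.81% over all), and the NFY motif CCAAT in 34.9% and 37.5% (37.4% over all). In protein-coding windows alone the ETS motif was in 1.84% of those in low-H3K27ac regions and 9.42% of others. It was rarer in the low-H3K27ac windows in each of the 4 bins above 2 CpG per 100 bases, for example 1.39% against 11.2% at 5 to 8. In the bin up to 2 the shares were 1.41% and 1.26%. A match is a run of letters and not a measured binding site. Regions away from these windows have no sequence in the reference used here, so their motifs were not analysed.

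**Figure D5:**
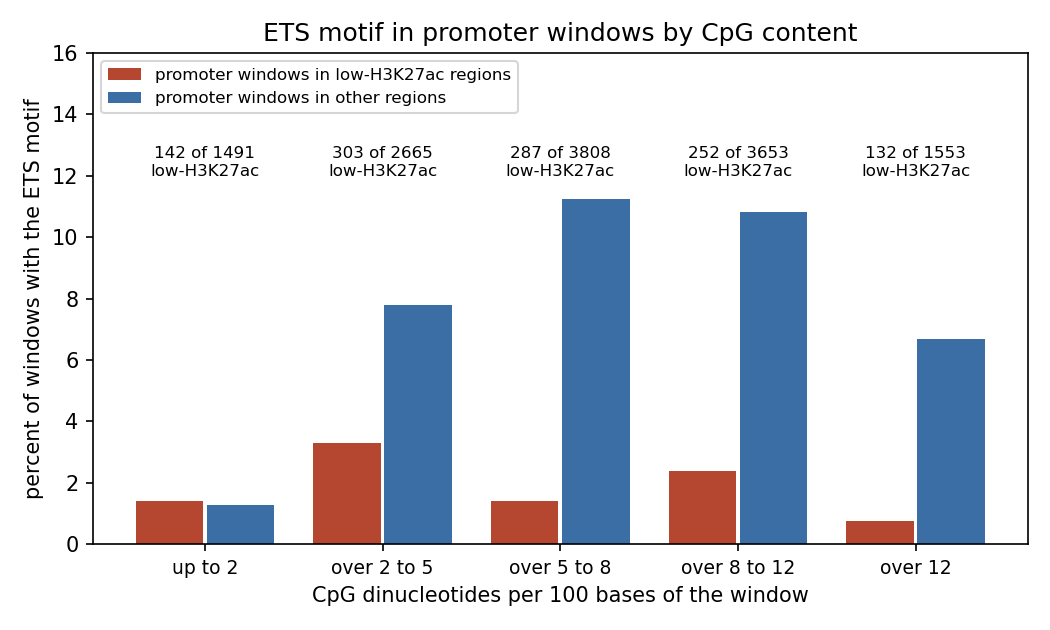
Percent of promoter windows with the ETS motif by CpG dinucleotides per 100 bases, for windows inside low-H3K27ac regions and inside other regions; the text above the bars gives the number of windows in low-H3K27ac regions of all windows in the bin. From over 2 CpG per 100 bases upward the low-H3K27ac share is 0.758% to 3.30% and the other share 6.69% to 11.2%.

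The genotypes were compared with limma over all regions that passed a filter on low tags (80835), at a Benjamini-Hochberg adjusted p under 0.05. No low-H3K27ac region passed the filter, since their tags are too few, so this fit gives the set no genotype test. A fit without the filter took in 16277 of them and called 0 by limma (74 at an unadjusted p under 0.05), against 5870 of 127654 regions in all (4.6%). Nothing is read from that 0, since the rule had held all 4 values of these regions under 3. Of all tested regions 9.64% were called (7791), 6.81% higher in GrnKO and 2.83% lower. This count rested on single libraries: it was 13389 without WT replicate 1, 12873 without WT replicate 2, 2171 without GrnKO replicate 1 and 3053 without GrnKO replicate 2. Of the 11587 tested regions within 10 kb of a low-H3K27ac region, 677 (5.84%) were called, 441 (3.81%) higher and 236 (2.04%) lower, each share below that of all tested regions. Their median level was 21.5 scaled tags, against 34.4 for all tested regions, and the part of that level in the lower share was not tested. With the authors' scaling in place of TMM, 6920 regions were called and 95.2% of them were higher in GrnKO, against 70.6% with TMM, and the median log2 change of all regions was 0.22. A called region near the set, picked out for its small adjusted p, lay 2829 bp before the start of Sqstm1, the autophagy receptor p62, with 87.1 and 82.7 in WT and 324 and 323 in GrnKO (log2 change 1.70, limma adjusted p = 2.09e-05). Both GrnKO values lay above both WT values. S100a8, a marker of neutrophils and monocytes, was also higher in both GrnKO pools, and the part of such cells in the genotype calls was not tested.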

How the data were processed

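H3K27ac and input libraries of sorted microglial nuclei, 2 pools of 2 mice per genotype, were analysed from 1 deposited table of regions. The deposited values are a signal: per the file headers, tags per region were normalised by the authors to a library total of 10000000. The table also gives each region a score from 540 to 1000, deposited by the authors with no statement of how it was made, and the nearest start site, annotation and repeat in the form that HOMER writes. The submitters' processing notes name Bowtie2, HOMER, DESeq2 and the build mm10, without versions or roles. Multiplying values by library totals gave whole read ends, 2 per tag, for 100% of values within a tolerance of 0.1 read ends, and rounded tags were used for the count tests.

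Low-H3K27ac regions were those on chromosomes 1 to 19 with each of the 4 H3K27ac values under 3. Shares are set beside those of all other autosomal regions without a test, since regions are not replicates. Tests over libraries are exact permutation tests. The genotype fit used limma 3.58.1 in R 4.3.3 on log2(value + 1) with TMM factors (edgeR 4.0.16), a linear model on genotype with a trended variance, after edgeR's filterByExpr with a minimum of 10 tags. Fold changes are therefore on the log2(value + 1) scale, which understates change at low values. With 2 pools per genotype, p-values measure the spread between these pools.

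Named genes are the 10 with the most joined loci, the 10 with the most regions within 1 kb of a start, the 3 leading genes of each list, the 5 regions of highest mean input, and 2 regions with 0 tags per main annotation class; any further name was picked with its values in view, and some results of this rule are not reported here. The set and the gene lists were chosen with earlier results of these data known. Gene names are those of the table: 18038 of 18101 symbols were current or older RefSeq symbols. Sequences are RefSeq's. The values hold no molecular identifiers, and floors therefore cover counting error only. The alternatives tried concern the threshold, scaling, libraries, overlap, filter, pseudocount, test and window. Same-numbered pools are different mice, and their deviations did not go together (r = 0.033 over 80835 regions).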

Additional observations from a re-analysis of the deposited data

How the results depend on the processing

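The number of low-H3K27ac regions followed the threshold: 11330 at 2, 30950 at 5, 1359 with 0 tags in all 4 libraries, and 36261 with a mean under 3. Leaving out 1 library gave 20814 to 23481, TMM-scaled values 17832 and joined loci 14652. The lower share of promoters and introns, the higher intergenic share and the lower share near starts kept their direction in all of these. Promoters made up 9.61%, 8.37%, 9.57% and 8.16% at those 4 thresholds, 7.40% of loci and 12.3% at a score of 1000 (an alternative chosen after seeing the data). Introns made up 37.4%, 40.8%, 35.6% and 41.2%, 39.5% of loci and 34.6% at that score. Intergenic regions made up 40.8% at 5, 40.8% by the mean and 43.8% of loci. Regions within 1 kb of a start made up 15.8%, 13.8%, 16.4% and 13.5%, 10.4% of loci and 17.8% at that score. Without 1 library these shares were 8.70 to 8.79%, 39.2 to 39.6%, 41.1 to 41.7% and 14.3 to 14.5%. The repeat share, 0.57 percentage points above that of other regions, reversed with 0 tags in all libraries (12.3% against 14.8%; the cause was not tested). It was 14.8% against 14.8% of other regions at 2, 16.5% against 14.3% at 5, 16.7% against 14.04% by the mean, 16.7% against 16.6% of loci, 11.2% against 11.2% at a score of 1000, and 15.6 to 15.9% against 14.6% without 1 library.

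Input density stayed lower in the set under every alternative, between -0.21 and -0.14 on the log2 scale. The difference in input share between genotypes was 0.43 percentage points, as with the replicate block (exact sign-flip permutation p = 1), 0.65 without piled-up regions, and -0.35 to 1.20 without 1 input; it reversed without WT replicate 1. The replicate block raised the genotype calls from 7791 to 11408, but numbers do not pair these mice. Leaving out 1 library gave 2171 (GrnKO replicate 1) to 13389 calls (WT replicate 1), with 12873 without WT replicate 2 and 3053 without GrnKO replicate 2; the lone library of a genotype was assumed to vary like the others. Other settings gave 5830 (DESeq2) to 8769 (pseudocount 5), and edgeR's quasi-likelihood test on recovered tags 7966. Calls near the set were 4.33% within 5 kb and 8.83% within 50 kb. In the central 200 bases of promoters CTCF (5.02%), AP-1 (4.39%) and NFY (29.4%) matches in the set were fewer, as the window is shorter, and no motif changed direction there or with overlapping windows joined. The threshold keeps every region of the set to a few tags, and at this depth a value under the 3-tag floor of 1.50 to 1.94 scaled tags is not told apart from 0.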
